A study of Mus musculus with 12 samples.

Results

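Galectins and the galectin-binding glycoprotein Lgals3bp were followed in 12 bulk RNA-sequencing libraries from mouse tumors. The members are 6 gene symbols, Lgals3bp, Lgals1, Lgals3, Lgals4, Lgals8 and Lgals9, of the 34678 symbols listed for every tumor. They were picked by name, with values from these tumors already known, so their own differences between arms are described without a p-value. The tumors grew from LLC1-shLkb1 cells, a Lewis lung carcinoma line in which a short hairpin RNA lowers the kinase Lkb1 (gene symbol Stk11), in C57BL/6 mice that were 5 to 8 weeks old, and they were collected after 2 weeks of treatment. Mice received vehicle (an IgG control antibody), palbociclib, an inhibitor of the cell cycle kinases CDK4 and CDK6 (100 mg/kg by mouth), an anti-PD-1 antibody (200 µg per mouse), or both agents together, here called the combination. There were 3 tumors in each of the 4 arms, and all 12 carried the hairpin. The study asked with these tumors how the arms differed in immune gene expression. No tumor with normal Lkb1 was among them, and the sources do not say that each library came from a different mouse, so a p-value measures only the spread between these samples.

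Galectins are small lectins that bind beta-galactoside sugars on glycoproteins and glycolipids, mostly at the cell surface and in the extracellular matrix. They are made without a signal peptide, leave the cell by an unconventional route, and by crosslinking glycoproteins can hold receptors at the surface of T cells or trigger their death. Lgals1 is a galectin with a single sugar-binding domain, Lgals3 carries a collagen-like tail, and Lgals4, Lgals8 and Lgals9 have a pair of sugar-binding domains in tandem. Lgals9 is known as a ligand of the T cell checkpoint receptor TIM-3. Lgals3bp is not a lectin but a secreted glycoprotein with a scavenger receptor cysteine-rich domain that binds galectins and matrix proteins, and both Lgals3bp and Lgals9 are known to be inducible by interferon.

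Positions are on GRCm38. Lgals3bp lies on chr11 (118392751 to 118402092, minus strand) and Lgals9 on the same chromosome (78962974 to 78984946, minus strand). Lgals1 lies on chr15 (78926725 to 78930465, plus strand), Lgals3 on chr14 (47367751 to 47386160, plus strand), Lgals4 on chr7 (28833854 to 28841708, plus strand) and Lgals8 on chr13 (12439415 to 12464944, minus strand).

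The sequences before the starts of Lgals3bp and Lgals9 are shown because these 2 members had their lowest level in vehicle and their highest mean in palbociclib tumors. Each run holds the 250 bases before the RefSeq transcript start on GRCm38.p6, read on the gene's own strand, at chr11:118401960-118402209 for Lgals3bp and chr11:78984925-78985174 for Lgals9. GENCODE places the starts further upstream, at 118402092 and 78984946, inside these windows. Capitals mark matches, on either strand, to the core of the interferon-stimulated response element, spelled here as GAAA, any 2 bases and GAAA again, and to AANNGAAA, the core bound by interferon regulatory factors.
Lgals3bp: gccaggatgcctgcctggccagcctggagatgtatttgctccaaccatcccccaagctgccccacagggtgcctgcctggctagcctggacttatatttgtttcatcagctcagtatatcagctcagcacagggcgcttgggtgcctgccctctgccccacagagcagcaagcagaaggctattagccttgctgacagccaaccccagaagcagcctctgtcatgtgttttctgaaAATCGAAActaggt
Lgals9: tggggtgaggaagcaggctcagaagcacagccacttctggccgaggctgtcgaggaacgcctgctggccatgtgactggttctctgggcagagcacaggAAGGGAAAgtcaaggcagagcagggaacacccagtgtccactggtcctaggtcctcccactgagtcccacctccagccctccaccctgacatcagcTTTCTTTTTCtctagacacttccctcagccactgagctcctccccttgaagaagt

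The window searched ran on for 50 bases from the start. Lgals3bp held 1 match to AANNGAAA (AATCGAAA, at base -14 from the start) and no match to the response element core. Lgals9 held 2 matches to the response element core on the minus strand of the gene, TTTCTTTTTC at base -55 and TTTCTGTTTC at base 16 after it, and 3 matches to AANNGAAA, of which 2 overlap these. Lgals3, Lgals4 and Lgals8 held neither motif in this window, and the gamma-activated motif TTCNNNGAA was found in none of the 5 members with an entry. Of all 32851 promoters in the RefSeq table, 3.44% held the response element core, 23.9% held AANNGAAA and 8.30% held TTCNNNGAA. Among 22 genes with an entry from a list of 30 interferon-stimulated genes, 15 (68.2%) held the response element core, 18 held AANNGAAA and 4 held TTCNNNGAA, against 3.99%, 26.7% and 9.55% of all 27025 genes in that table. The motifs were chosen after the members' values were known, and a match is a description of letters only.

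The libraries held an estimated 14900000 to 20300000 fragments (median 16300000), read from the steps between low values. Levels are in FPKM, fragment counts scaled by transcript length and by library size, so genes can be set side by side per length. The tumors expressed the epithelial keratin Krt8 at 62.0 to 276 FPKM, whereas Krt18 was at 0 to 5.08 and Epcam at 0 to 1.81 FPKM. Stk11 was at 7.90 to 11.5 FPKM in all 12 tumors, which cannot be checked against a tumor without the hairpin. Palbociclib tumor 2 stood apart by skin genes, with Krt5 at 101 and Krt14 at 178 FPKM against at most 0.228 and 0.533 in the other tumors, and palbociclib tumor 1 and combination tumor 1 held Adipoq, a fat cell gene, at 34.6 and 102 FPKM. Summed skeletal muscle genes were at 187 FPKM in palbociclib tumor 3, 165 in combination tumor 2 and 61.8 in vehicle tumor 1, against at most 10.8 elsewhere. Every palbociclib tumor thus held genes of skin, fat or muscle, as did some vehicle and combination tumors.

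The 6 members spanned more than 3 orders of magnitude in level. Lgals1 had a mean of 3181 FPKM over the 12 tumors and ranked 2 of 34678 symbols, with a rank between 1 and 12 in every tumor. Lgals3 followed at 119 FPKM (rank 281), then Lgals3bp at 48.4 (rank 889), Lgals9 at 29.3 (rank 1653), Lgals8 at 8.44 (rank 5360) and Lgals4 at 0.667 FPKM (rank 11915). Each member was above the next in this order in all 12 tumors, except that Lgals3bp was above Lgals9 in 11 of 12, vehicle tumor 1 having 19.3 and 19.5 FPKM of them. The ranges over all tumors overlapped only between Lgals3 and Lgals3bp and between Lgals3bp and Lgals9.

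Lgals3bp showed the widest separation between arms. Its FPKM was 19.3, 22.7 and 25.7 in the vehicle tumors and 92.2, 64.5 and 85.2 in the palbociclib tumors. It was 48.4, 43.5 and 46.6 in the anti-PD-1 tumors and 37.4, 44.6 and 50.4 in the combination tumors. The 3 vehicle tumors were below the other 9 and the 3 palbociclib tumors above the other 9, while anti-PD-1 and the combination overlapped between them. Palbociclib tumors were above the other 9 in 213 of 15350 genes (1.39%). The arm means were 22.6 ± 3.24, 80.7 ± 14.4, 46.1 ± 2.44 and 44.1 ± 6.52 FPKM (SD, n = 3 each), in the order vehicle, palbociclib, anti-PD-1, combination. Palbociclib was 3.57 times vehicle, anti-PD-1 2.04 times and the combination 1.95 times. On the log2(FPKM + 0.1) scale the palbociclib tumors exceeded vehicle by 1.83 (SE 0.16), or by 1.98 without palbociclib tumor 2 and its skin genes. Without palbociclib tumor 1 the difference was 1.72, and without palbociclib tumor 3 it was 1.78. The combination minus anti-PD-1 difference was -0.07 (SE 0.16). Of all 15350 genes tested, 9 (0.0586%) had the same arrangement, with vehicle below and palbociclib above every other tumor, and 3 of the 30 interferon-stimulated genes were among them, Ifit3, Oasl2 and Ifih1.

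**Figure D1:**
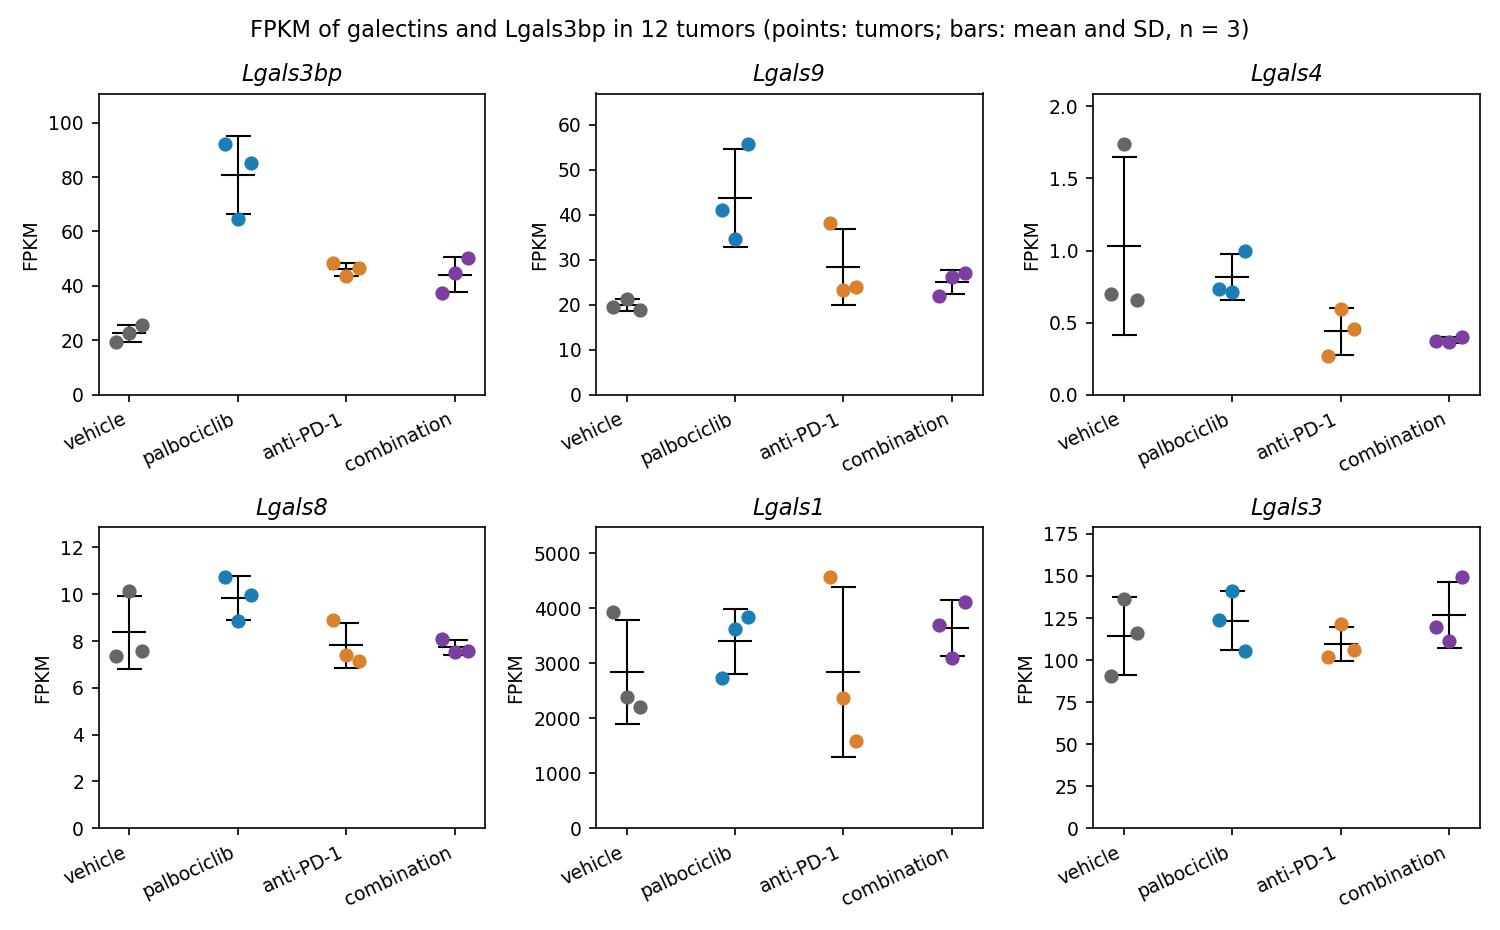
FPKM of the 5 galectins and Lgals3bp (y axes, linear from 0, different scale in each panel) in vehicle, palbociclib, anti-PD-1 and combination tumors (x axes). Points are tumors and bars the mean and SD (n = 3). Lgals3bp and Lgals9 are lowest in vehicle and have their highest mean in palbociclib, Lgals4 lies at 0.598 FPKM or less in the 6 tumors given anti-PD-1 and at 0.655 or more in the other 6, and Lgals1 and Lgals3 overlap in all arms.

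Lgals9, the TIM-3 ligand, followed a similar order at a smaller size. Its FPKM was 19.5, 21.4 and 18.8 in vehicle tumors and 41.1, 34.6 and 55.8 in palbociclib tumors. It was 38.3, 23.2 and 24.0 in anti-PD-1 tumors and 21.9, 26.3 and 27.0 in combination tumors. All 3 vehicle tumors lay below the other 9, which held for 170 of 15350 genes (1.11%). The palbociclib and anti-PD-1 tumors overlapped through anti-PD-1 tumor 1 alone, which had more Lgals9 than palbociclib tumor 2. The arm means were 19.9 ± 1.31, 43.8 ± 10.9, 28.5 ± 8.47 and 25.1 ± 2.73 FPKM (SD, n = 3 each), so palbociclib was 2.20 times vehicle and the combination 1.26 times. The difference between palbociclib and vehicle was 1.11 (SE 0.21) on the log2 scale, and that between the combination and anti-PD-1 was -0.15 (SE 0.21). Anti-PD-1 exceeded vehicle by 0.48 (SE 0.21), and by 0.25 when anti-PD-1 tumor 1 was left out.

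Lgals3bp and Lgals9 each differed in opposite directions with anti-PD-1 in mice without and with palbociclib. Without palbociclib, anti-PD-1 tumors had 1.04 more Lgals3bp than vehicle on the log2 scale (SE 0.16), whereas with palbociclib the difference between combination and palbociclib tumors was -0.86 (SE 0.16). For Lgals9 these differences were 0.48 and -0.78 (SE 0.21 each). All anti-PD-1 tumors were above all vehicle tumors (653 of 15350 genes, 4.25%) and all combination tumors below all palbociclib tumors for both genes. Both together were found for 74 of 15350 genes (0.482%), among them 8 of the 30 interferon-stimulated genes. Lgals3 and Lgals1 lay near the origin of the plot of anti-PD-1 without and with palbociclib, at -0.04 and 0.04 for Lgals3 and at -0.09 and 0.10 for Lgals1.

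**Figure D2:**
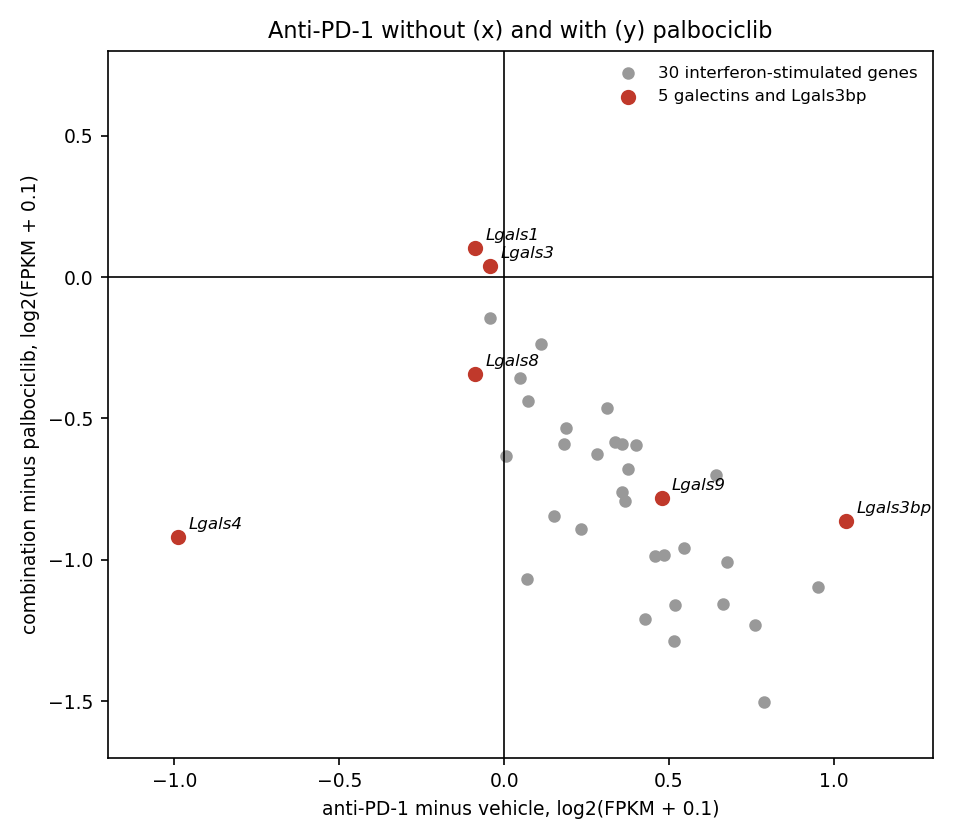
Difference in log2(FPKM + 0.1) between anti-PD-1 and vehicle (x axis) and between combination and palbociclib (y axis) for 30 interferon-stimulated genes (gray) and the 5 galectins and Lgals3bp (red, named). Each point is the limma estimate from 3 tumors in each arm. Lgals3bp and Lgals9 lie at the lower right with 29 of the 30 interferon-stimulated genes, and Lgals4 lies at the far left.

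Lgals4, a galectin best known from the gut epithelium, was the member that separated the tumors by anti-PD-1. Its FPKM was 0.700, 1.74 and 0.655 in vehicle tumors and 0.736, 0.711 and 0.998 in palbociclib tumors. It was 0.269, 0.598 and 0.454 in anti-PD-1 tumors and 0.372, 0.363 and 0.402 in combination tumors. All 6 tumors given anti-PD-1 were below all 6 others, an arrangement shared by 25 of 15350 genes (0.163%). These values rest on few fragments, an estimated 19 to 36 in a tumor given anti-PD-1 and 39 to 99 in the others. Anti-PD-1 tumor 2, with 36 fragments, has a 95% exact Poisson interval of 0.419 to 0.828 FPKM. Vehicle tumor 3, with 49 fragments and the lowest FPKM of the tumors not given anti-PD-1, has one of 0.485 to 0.866. Palbociclib tumor 2, with 39 fragments, has one of 0.506 to 0.972. The gap between anti-PD-1 tumor 2 and either of them was thus within counting error. Fragments are not independent molecules, and such intervals cover counting error only. On the log2(FPKM + 0.1) scale anti-PD-1 differed from vehicle by -0.99 and the combination from palbociclib by -0.92 (SE 0.35 each), and the first shrank to -0.46 with a pseudocount of 1 and to -0.57 without vehicle tumor 2. Palbociclib differed from vehicle by -0.19 (SE 0.35), a difference that was 0.22 without vehicle tumor 2, the tumor with the most Lgals4.

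Lgals8, a galectin known for marking damaged vesicles for autophagy, had the narrowest range over the tumors. Its FPKM was 7.37, 10.2 and 7.57 in vehicle tumors, 10.7, 8.86 and 9.95 in palbociclib tumors, 8.90, 7.39 and 7.15 in anti-PD-1 tumors and 8.09, 7.51 and 7.57 in combination tumors. The combination tumors were all below the palbociclib tumors, with a difference of -0.34 (SE 0.14) on the log2 scale, as in 1404 of 15350 genes (9.15%), and vehicle overlapped with every other arm.

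Lgals1 and Lgals3, the members with the highest levels, overlapped between all arms. Lgals1 was at 3929, 2382 and 2205 FPKM in vehicle, 2733, 3632 and 3846 in palbociclib, 4567, 2377 and 1581 in anti-PD-1 and 3698, 3107 and 4113 in combination tumors. Its highest and lowest values were thus both in the anti-PD-1 arm, and the arm means ran from 2839 ± 948 (vehicle) to 3639 ± 506 FPKM (combination, SD, n = 3). Lgals3, which is also an intracellular marker of macrophages, was at 90.3, 136 and 116 FPKM in vehicle, 124, 141 and 106 in palbociclib, 102, 121 and 106 in anti-PD-1 and 120, 112 and 149 in combination tumors. The palbociclib effect, the mean of the difference made by palbociclib without and with anti-PD-1, was 0.39 (SE 0.25) for Lgals1 and 0.16 (SE 0.12) for Lgals3 on the log2 scale. For Lgals1 it was 0.60 without anti-PD-1 tumor 1, 0.21 without anti-PD-1 tumor 3 and 0.67 after quantile normalization, and for Lgals3 it was 0.083 without vehicle tumor 1 and 0.10 without combination tumor 3.

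Over the members, the coefficient of variation within arms was 12.2% for Lgals8, 13.9% for Lgals3bp, 15.4% for Lgals3 and 20.4% for Lgals9. It was 33.8% for Lgals1, the most abundant member, and 36.6% for Lgals4, the least abundant. All 6 members passed the filter of a mean of at least 0.1 FPKM, and the fit across all 15350 genes called 1 of the 6, Lgals3bp, in the palbociclib effect and against vehicle. The same fit called 48 genes (0.313%) in the palbociclib effect and 22 (0.143%) for palbociclib against vehicle, and since these arms were in view when the members were chosen, nothing is read from the count. In the other pairs of arms no member was called, beside 0.013% of genes for the combination against vehicle and 0.00651% for the combination against palbociclib and against anti-PD-1. Without vehicle tumor 2, palbociclib tumor 1 or 3, anti-PD-1 tumor 2 or 3, or combination tumor 1 or 3 the call in the palbociclib effect was lost, with a difference that stayed between 0.82 and 0.95 around the value of 0.88 (SE 0.11) over all alternatives, whereas the call against vehicle was made in all 12 fits with 1 tumor left out and in 8 of 9 other settings. How many of all genes those fits called for palbociclib against vehicle is not given here, so nothing is read from that repeated call. The members' median palbociclib effect was 0.28, beside 0.06 over all genes tested. The comparisons against vehicle share the vehicle tumors.

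**Figure D3:**
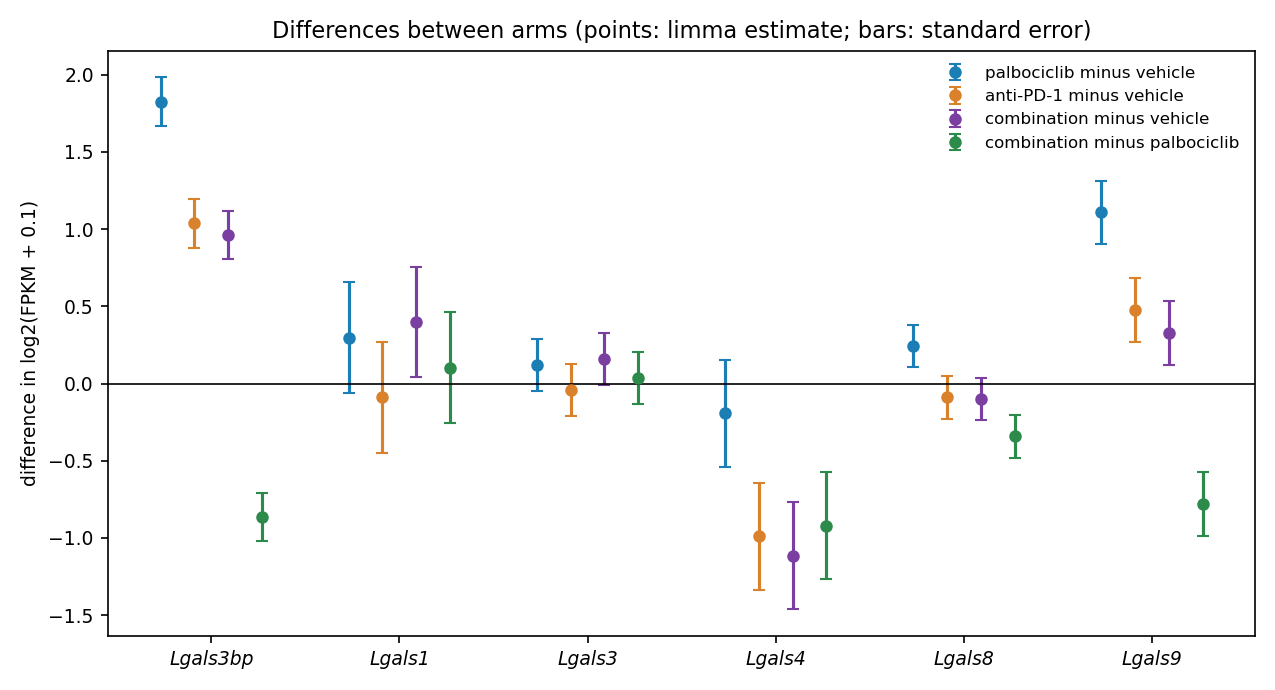
Differences in log2(FPKM + 0.1) (y axis) for the 5 galectins and Lgals3bp (x axis) in 4 comparisons between arms. Points are limma estimates and bars standard errors from 12 tumors. Lgals3bp (1.83) and Lgals9 (1.11) have the 2 highest palbociclib values, and the 3 comparisons with vehicle share the vehicle tumors.

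Interferon-stimulated genes were the only one of the 5 pathway lists with genes that passed the test in the palbociclib effect. Of the 30 on the list, 7 rose in the palbociclib effect, none fell, and all 30 had a positive difference with a median of 0.75 on the log2 scale against 0.06 over all genes. Against vehicle alone, 8 of 30 rose with palbociclib (median 1.39). Between the combination and anti-PD-1, the other part of this effect, limma called 0 of 30, with 20 positive and a median of 0.12. There, 6 of the 30 had an unadjusted p under 0.05, beside 1814 of all 15350 genes. Between anti-PD-1 and vehicle limma called 0 of 30 (4 at an unadjusted p under 0.05, beside 1289 of all 15350 genes), with 29 positive. Between the combination and palbociclib it called 0 of 30 (26 unadjusted, beside 694 of all 15350 genes), with 0 positive and a median of -0.78. The list was chosen with earlier results of these tumors known, so its direction is not independent evidence. The counts of 7 and 48 both fell to 0 without vehicle tumor 2, palbociclib tumor 3, anti-PD-1 tumor 2 or 3, or combination tumor 1, and were 16 and 758 without anti-PD-1 tumor 1. Leaving out any 1 of the 12 tumors moved the count of 48 by more than 1.5 times.

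Those that rose included sensors and effectors. Gbp3, a guanylate-binding GTPase, rose from 5.63 ± 0.899 FPKM in vehicle to 20.9 ± 5.15 in palbociclib tumors and was at 7.10 ± 1.77 in anti-PD-1 and 15.5 ± 5.28 in combination tumors (SD, n = 3), a palbociclib effect of 1.46 (SE 0.20, limma, Benjamini-Hochberg adjusted p = 0.0339). Gbp2, of the same family, had the largest effect of these, 1.79 (SE 0.31, limma adjusted p = 0.0462). Its means were 30.9 ± 12.9 FPKM in vehicle, 104 ± 11.6 in palbociclib, 28.5 ± 5.72 in anti-PD-1 and 108 ± 58.7 in combination tumors. Unlike Lgals3bp, Gbp2 thus had its highest mean in the combination and its lowest in anti-PD-1 tumors.
Ifih1, a cytoplasmic sensor of double-stranded RNA, was at 1.33 ± 0.0567 FPKM in vehicle, 3.64 ± 0.493 in palbociclib, 1.79 ± 0.480 in anti-PD-1 and 2.24 ± 0.290 in combination tumors. As for Lgals3bp, vehicle was the lowest arm and palbociclib the highest, and the tumors of the 2 arms between them overlapped. Ifit2, Parp14 and Trim30a rose by 0.85, 0.86 and 0.81 in the palbociclib effect, each with a limma adjusted p of 0.0399. Zbp1, a nucleic acid sensor, and Cxcl10, a chemokine that draws T cells, had effects of 1.46 and 1.04 with limma adjusted p-values of 0.0654 and 0.0736 and were not called.

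The genes whose levels tracked Lgals3bp from tumor to tumor were also led by this group. After each arm's mean was subtracted, the 5 genes with the highest Pearson correlation over 12 tumors, of 11187 compared, were Oas3 (r = 0.95), Ifi204 (0.90), Ifi44 (0.89), Agk (0.89) and Mmp8 (0.89). Oas3 makes an activator of RNase L, and Ifi204 and Ifi44 are interferon-inducible. The median correlation of Lgals3bp with the 30 interferon-stimulated genes was 0.66, against -0.04 over all genes. For Lgals9 the same median was 0.53 against 0.03. Its 5 nearest genes, none of them on the list of 30, were Actr10 (r = 0.94), Tdrd7 (0.93), Fam219b (0.92), Vamp8 (0.92) and Thoc1 (0.92). With arm means kept, the gene nearest to Lgals3bp was Oasl2 (r = 0.95) and the gene nearest to Lgals9 was Mx1 (r = 0.95). These correlations are descriptions over 12 tumors that share 4 arms, and the genes named were selected for the size of r among 11187.

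For the other members none of the 30 interferon-stimulated genes was among the 5 nearest. With arm means subtracted, Lgals1 was nearest to Panx1 (r = 0.99), Farsa, Zeb2os, Gm5422 and Atp6v0e. Lgals3 was nearest to Zscan25 (r = 0.98), Hk1, Zfp36, Cdkn1a and 4930447F24Rik. Lgals4 was nearest to Matn2 (r = 0.97), Stoml1, Zfp358, Ssc5d and Klrg1, and Lgals8 to Fbxw17 (r = 0.95), Dhx57, Usp49, Snx1 and Pick1. The median correlation with the interferon-stimulated genes was 0.14 for Lgals1, -0.22 for Lgals3, -0.05 for Lgals4 and 0.18 for Lgals8. With arm means kept it was 0.86 for Lgals3bp, 0.85 for Lgals9 and 0.55 for Lgals8, against 0.08, 0.09 and 0.04 over all genes, and 0.29 for Lgals1, 0.12 for Lgals3 and 0.04 for Lgals4.

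Since the tumors are mixtures, a lower level in fewer cells and a lower level per cell cannot be told apart. Macrophages are known to express Lgals3 and Lgals9. The summed FPKM of 14 macrophage genes was 395 to 1749 in vehicle, 1166 to 1920 in palbociclib, 425 to 1485 in anti-PD-1 and 901 to 2160 in combination tumors, with 13 of the 14 genes positive and 0 called in the palbociclib effect. Vehicle tumor 1 had the highest macrophage sum of its arm (1749) and the lowest Lgals3bp (19.3), and combination tumors 1 and 3 had the 2 highest macrophage sums of all 12 (2101 and 2160) with Lgals3bp at 37.4 and 50.4 and Lgals9 at 21.9 and 27.0 FPKM. Anti-PD-1 tumor 1, which had the highest Lgals3bp (48.4 FPKM), Lgals9 and Lgals1 of its arm, also had its highest macrophage sum (1485 against 425 and 435). Lgals3 was the lowest of the arm in this tumor (102 FPKM) and in vehicle tumor 1 (90.3 FPKM). In palbociclib tumor 2 and combination tumor 3, by contrast, Lgals3 and the macrophage sum were both the highest of the arm. Summed leukocyte genes were at 77.0 to 121, 128 to 181, 73.8 to 116 and 93.6 to 187 FPKM in the 4 arms in the same order, with all 8 genes positive and 0 called. Summed dendritic cell genes were at 11.8 to 14.9 FPKM in palbociclib tumors, above the other 9 (2.80 to 9.30 in vehicle, 3.81 to 5.94 in anti-PD-1 and 4.65 to 10.1 in combination tumors), with all 7 genes tested positive and 0 called. Summed T cell genes were at 3.05 to 8.66 FPKM in vehicle, 10.9 to 20.1 in palbociclib, 2.47 to 6.23 in anti-PD-1 and 6.61 to 21.0 in combination tumors, with 10 of 10 genes positive, a median palbociclib effect of 1.42 and 0 called. The palbociclib tumors were thus on top in the dendritic cell sums and in Lgals3bp. The highest T cell sum was in a combination tumor, at 21.0 against 20.1 FPKM in the highest palbociclib tumor. Between anti-PD-1 and vehicle, however, 3 of 7 dendritic cell genes were positive (median -0.21 on the log2 scale), while Lgals3bp was higher by 1.04. Of the dendritic cell genes, Xcr1 and Clec9a were at 0 in some tumors. The part of these cells in the members' differences was not tested.

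Outside the members, 3 further galectin genes had values above 0 with a mean of at least 0.1 FPKM. In the palbociclib effect limma called 0 of them (1 at an unadjusted p under 0.05, beside 3154 of all 15350 genes). Lgals7, a galectin of stratified epithelia, was at 1.17, 1.02 and 1.36 FPKM in vehicle and 1.36, 45.6 and 4.43 in palbociclib tumors. It was 1.40 to 2.08 in anti-PD-1 and 0.925 to 2.99 FPKM in combination tumors. The 1 tumor with 45.6 FPKM, palbociclib tumor 2, was the one with a summed keratinocyte level of 410 FPKM, against at most 2.23 in the other 11. The palbociclib effect of Lgals7 was 1.08 (SE 0.66, limma adjusted p = 0.373) with this tumor and 0.38 without it.
Lgals12, a galectin of fat cells, was listed at 0 in all vehicle and anti-PD-1 tumors, at 0.636, 0.0105 and 0.0189 FPKM in palbociclib tumors and at 0.995, 0 and 0 in combination tumors. Its 2 highest tumors were palbociclib tumor 1 and combination tumor 1, whose adipocyte genes summed to 411 and 994 FPKM against at most 38.1 elsewhere. Its palbociclib effect did not pass the test (limma adjusted p = 0.347). Lgalsl, a galectin-like protein without known sugar binding, was at 10.2 to 15.0 FPKM in all tumors, with an effect of -0.21 (SE 0.084, limma adjusted p = 0.205). Lgals2 was listed at 0 in all 12 tumors, as was the pseudogene Lgals1-ps1, and Lgals1-ps2 was at no more than 0.805 FPKM. How reads shared by Lgals1 and these pseudogenes were assigned is not given in the sources used here.

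**Figure D4:**
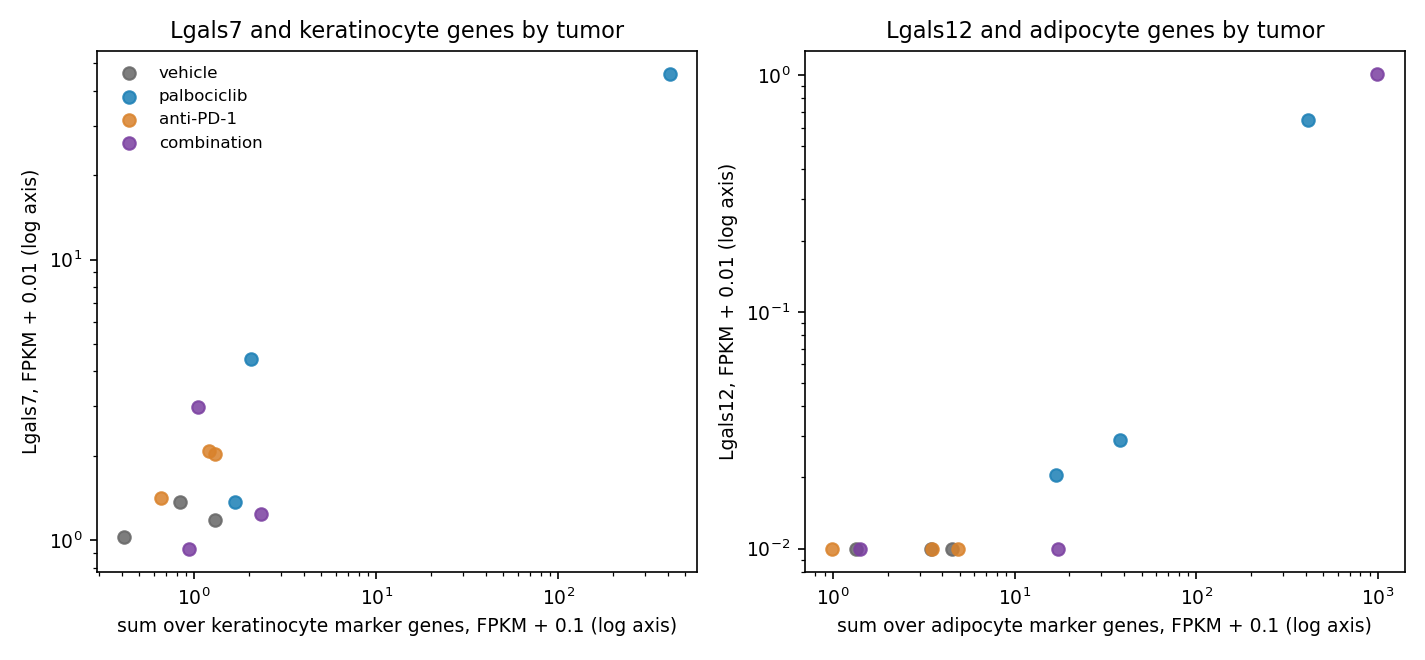
Lgals7 against the summed keratinocyte genes (left) and Lgals12 against the summed adipocyte genes (right), both axes in FPKM on log scales with 0.1 added on the x axes and 0.01 on the y axes. Each point is 1 tumor, colored by arm. The palbociclib tumor at the top right of the left panel holds 45.6 FPKM of Lgals7, and the 2 tumors at the top right of the other panel are palbociclib tumor 1 and combination tumor 1.

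The glycoproteins that galectins bind, and enzymes that build sugars on glycoproteins or glycolipids, gave few differences. Of 27 tested partners of galectins, limma called 0 in the palbociclib effect (10 at an unadjusted p under 0.05). Among all 15350 genes tested, 3154 had such an unadjusted p. Of the 27 partners, 18 were positive and the median was 0.25. Spn (CD43), a T cell surface sialoglycoprotein bound by Lgals1, was at 1.10 ± 0.307 FPKM in vehicle and 2.39 ± 0.511 in palbociclib tumors, with an effect of 0.95 (SE 0.22, limma adjusted p = 0.0836). Cd40 had an effect of 1.01 (limma adjusted p = 0.119), the transferrin receptor Tfrc 0.88 (0.211) and the costimulatory receptor Tnfrsf9 -0.98 (0.261). None of these 4 passed the test.

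Of 20 genes for N-glycan branching and galactosylation, limma called 0 (3 unadjusted), with a median of 0.08 close to that of all genes. An unadjusted p under 0.05 in the palbociclib effect was found for 3154 of all 15350 genes tested. Mgat3, whose bisecting sugar limits the branches that galectins bind, was nearest to the threshold. It was at 4.77 ± 0.795 FPKM in vehicle, 2.43 ± 0.819 in palbociclib, 3.45 ± 0.593 in anti-PD-1 and 2.39 ± 0.270 in combination tumors, an effect of -0.74 (SE 0.16, limma adjusted p = 0.0737). B4galt6, Gcnt2 and B4galt1 had effects of 0.67, -0.57 and -0.28 (limma adjusted p = 0.218, 0.125 and 0.331). Of 12 genes for sialylation, the addition or removal of a sugar that can mask galectin sites, 0 were called by limma (3 unadjusted) and 10 were positive. St3gal5, St3gal4, St6galnac4 and St3gal3 had effects of 0.48, 0.30, 0.28 and 0.23 (limma adjusted p = 0.414, 0.182, 0.168 and 0.393).

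Lgals3bp shares its cysteine-rich domain with scavenger receptors and with lysyl oxidase-like enzymes. Of 12 other genes for such proteins, limma called 0 in the palbociclib effect (3 at an unadjusted p under 0.05). Among all 15350 genes tested, 3154 had such an unadjusted p. Of the 12, 9 were positive and the median was 0.43. Marco, a macrophage scavenger receptor, had the largest effect, 1.69 (SE 0.49, limma adjusted p = 0.116), with means of 3.32 ± 2.69 FPKM in vehicle, 6.43 ± 1.73 in palbociclib, 1.82 ± 1.12 in anti-PD-1 and 10.7 ± 9.56 in combination tumors. Its combination mean was the highest, whereas that of Lgals3bp was below its palbociclib mean. Scara5, Loxl1 and Loxl2 had effects of 0.996, 0.60 and -0.58 (limma adjusted p = 0.271, 0.438 and 0.270).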

How the data were processed

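RNA from 12 tumors was sequenced on Illumina libraries, and the authors deposited 1 table of FPKM values per tumor, made per the labels' processing notes with HISAT2 on GRCm38 (mm10). The counting tool and annotation are not given in the sources used here. Of 34745 entries, 67 were further entries of a symbol already listed; only the copy with the largest mean was used (34678 symbols). Positions came from GENCODE M21 and promoters from RefSeq (GRCm38.p6; 5 of 6 members had an entry). Without counts, depth was estimated from the steps of low FPKM values in 3487 genes.

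Genes with a mean of at least 0.1 FPKM (15350) were fitted on log2(FPKM + 0.1), a scale that understates the change of low genes, with limma 3.58.1 in R 4.3.3 (1 mean per arm, trend, Benjamini-Hochberg, threshold 0.05), after the fit was tested on simulated data. The members, gene lists and motifs were chosen with earlier results of these data known. The text names every member, other galectins above 0, list genes called in the palbociclib effect plus the 4 with a mean of at least 1 FPKM and the largest effects, and the 5 genes most correlated with each member (mean of at least 1 FPKM). One result under this rule is not reported here.

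Alternatives were pseudocounts of 0.01 and 1, no filter and a filter at 1 FPKM, TPM rescaling, quantile normalization, no trend, a replicate block and each tumor left out.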

Additional observations from a re-analysis of the deposited data

Results flagged for a closer look

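For Lgals3bp, Lgals9 and Ifih1 every tumor given anti-PD-1 alone was above every vehicle tumor while every combination tumor was below every palbociclib tumor. For Lgals3bp the difference made by anti-PD-1 was 1.04 without palbociclib and -0.86 with it on the log2(FPKM + 0.1) scale, and the second minus the first was -1.90 (SE 0.22). For Lgals9 the values were 0.48 and -0.78, with -1.26 between them (SE 0.29). Both members were chosen with these arms in view, so no p-value is given for them. The fit across all genes called neither, and with other settings it called Lgals3bp in 5 of 8 and with 1 tumor left out in 2 of 12. How many of all genes those other fits called in the interaction is not given here, so nothing is read from these calls. For Ifih1, the sensor of double-stranded RNA, the values were 0.37 and -0.68, with -1.05 between them (SE 0.26), which did not pass the test (limma interaction, adjusted p = 0.736). Over all 15350 genes the limma interaction called 0 (879 at an unadjusted p under 0.05).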

How the results depend on the processing

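Of 1273 values recomputed under the alternatives for 68 results, 1213 stayed within the spread or 1.5 times of the value given and 60 moved. No called value changed sign, but 46 of 1107 recomputed differences of the members did, in differences near 0 such as those of Lgals1 and Lgals3 with anti-PD-1. The palbociclib effect of Lgals3bp stayed between 0.82 and 0.95 and that of Lgals9 between 0.38 and 0.59. These effects are means of the differences made by palbociclib without anti-PD-1 (1.83 and 1.11) and with it (-0.07 and -0.15). The count of genes called in the palbociclib effect was 48 and became 11 without a filter, 0 without a trend and 129 with a replicate block, and 0 to 758 with 1 tumor left out. Quantile normalization gave 28 higher and 16 lower calls, against 38 and 10. For the members called, 1 became 0 without a trend and 0 to 2 with 1 tumor left out. With 1 tumor left out, the calls were 0 to 4 for galectin partners, 0 to 1 for N-glycan genes, 0 to 1 for sialylation, 0 to 3 for scavenger receptor cysteine-rich proteins and 0 to 16 for interferon-stimulated genes. Of the galectin partners 1 was called with a filter at 1 FPKM, of the scavenger receptor cysteine-rich proteins 1 with a replicate block, and of the interferon-stimulated genes 1 without a filter and 0 without a trend. The cause was not tested. Of 18 pairs of tumors with the same replicate number, 7 correlated over 0.1 in their deviations from the arm means (r from -0.213 to 0.453, median 0.0275), including all 3 of vehicle with anti-PD-1, and 9 of 12 tumors had a higher mean r with their own number. As not every pair was over 0.1 and no label ties the numbers to mice, they were not taken as pairs, and whether they mark a shared source is unknown. With a pseudocount of 1 the Lgals4 differences of -0.99 and -0.92 became -0.46 and -0.39, and Lgals4, with 487 estimated fragments in all 12 tumors, was not tested under the filter at 1 FPKM.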
